A study of Mus musculus with 18 samples.

Results

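The H3K27me3 peaks of B6 and 129 mouse headfolds were compared in embryos whose dams were given vitamin C. The comparison rests on 6 of the 18 samples of the series, chosen by their labelled background, diet and antibody: 3 peak lists of B6 and 3 of 129. H3K27me3 was mapped by CUT&Tag, in which an antibody brings a transposase to the mark and the DNA cut there is sequenced, with a single headfold in each reaction. The headfold is the front end of the embryo, where the neural plate that forms the brain is folding. All embryos of both groups were Gulo-/-, which removes L-gulonolactone oxidase, the enzyme that completes vitamin C synthesis. All were taken at embryonic day 8.5, and all dams drank water with vitamin C at 3.3 g/l. The groups differ by strain, B6 against 129, and the design text writes the 129 strain as 129S6.B6-Gulo-/-, the notation for an allele moved from B6 into 129S6. How much B6 DNA came with the allele is not given in the sources used here. Another 6 lists, of B6 and 129 Gulo-/- headfolds of the same age without vitamin C, are used below only to read regions in further embryos.

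Each group held 2 female embryos and 1 male. The 3 B6 embryos (replicates 1, 2 and 4) carry the code of 1 pregnancy, and the 3 of 129 (replicates 1, 2 and 3) come from 3 pregnancies. The library numbers of B6 are all above those of 129, so strain, library number and, in B6, the pregnancy cannot be told apart. With 3 lists against 3 there are 20 relabellings and the smallest two-sided p of an exact permutation test is 0.1. No test between the groups could therefore pass 0.05. Each p-value below is the share of relabellings with a difference at least as large, and describes only these embryos. Relabelling treats the 3 B6 embryos of 1 pregnancy like embryos of separate pregnancies. Sequencing depth is not part of a peak list and is unknown. Lists of different length are set beside lists cut to the same number of peaks, the 1807 with the largest total signal, called equal lists below.

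H3K27me3 is written by the EZH1 and EZH2 enzymes of Polycomb repressive complex 2 and marks genes that are kept silent. In the early embryo it lies in broad domains over developmental regulators, above all the Hox clusters, and in narrower peaks over promoters rich in CG dinucleotides. A gene loses the mark where it is switched on, so cells that express a regulator and cells that do not can both be part of 1 headfold. A gene was called marked where a peak reached within 1 kb of either of its ends. The tissue label was read against 8 genes that the headfold expresses, of which 3, 1 and 7 were marked in full B6 lists and 7, 5 and 4 in 129. These are 45.83% and 66.67% on average, beside 10.41% and 10.59% of all coding genes. Hesx1 was marked in 0 of the 6 lists, Sox2 in 1 of 3 of each background, Otx2 and Sox3 in 1 of B6 and 2 of 129, and Pou3f1 in 2 of each. Zic2 was marked in 1 of B6 and 3 of 129, Sox1 in 2 and 3, and Six3 in all 6. Of 8 genes of other tissues, 5, 6 and 6 were marked in full B6 lists and 6 in each 129 list (70.83% and 75% on average). Hoxc10, Hoxd13, Myod1, Pdx1 and Tbx5 were marked in all 6 lists, and Neurod1 in some lists and not in others. The blood and liver factors Gata1 and Hnf4a were marked in none. A peak list holds no expression values, so the label could be checked no further.

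The promoters below belong to genes whose 300-base promoter window (250 bases before the start and 50 after) or gene end lay in a peak in every list of one background and in no list of the other, full lists. They are shown 5′ to 3′ in the direction of the gene, from RefSeq on GRCm38.p6, with each CG dinucleotide in capitals. The first 4 belong to 129 and the last 2 to B6.
Gm8108, chr14:4110102-4110401, + strand: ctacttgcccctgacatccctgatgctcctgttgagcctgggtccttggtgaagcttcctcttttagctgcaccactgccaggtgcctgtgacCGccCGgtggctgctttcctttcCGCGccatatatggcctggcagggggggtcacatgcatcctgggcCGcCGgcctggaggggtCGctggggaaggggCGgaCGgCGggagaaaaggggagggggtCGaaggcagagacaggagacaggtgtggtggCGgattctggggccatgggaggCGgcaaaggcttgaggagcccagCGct
LOC115488283, chr14:6038210-6038509, - strand: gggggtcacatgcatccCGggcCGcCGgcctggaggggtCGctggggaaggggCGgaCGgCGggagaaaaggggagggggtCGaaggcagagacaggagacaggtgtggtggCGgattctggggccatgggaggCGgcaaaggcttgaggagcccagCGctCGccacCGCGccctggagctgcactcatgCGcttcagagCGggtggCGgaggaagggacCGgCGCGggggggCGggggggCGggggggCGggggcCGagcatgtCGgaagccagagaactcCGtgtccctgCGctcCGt
Gm11127, chr17:36058322-36058621, - strand: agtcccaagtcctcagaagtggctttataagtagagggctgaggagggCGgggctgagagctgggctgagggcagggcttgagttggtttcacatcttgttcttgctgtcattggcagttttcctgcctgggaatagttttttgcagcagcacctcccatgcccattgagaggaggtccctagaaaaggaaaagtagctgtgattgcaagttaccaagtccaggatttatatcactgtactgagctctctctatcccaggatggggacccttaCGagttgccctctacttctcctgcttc
Exoc3l2, chr7:19463037-19463336, + strand: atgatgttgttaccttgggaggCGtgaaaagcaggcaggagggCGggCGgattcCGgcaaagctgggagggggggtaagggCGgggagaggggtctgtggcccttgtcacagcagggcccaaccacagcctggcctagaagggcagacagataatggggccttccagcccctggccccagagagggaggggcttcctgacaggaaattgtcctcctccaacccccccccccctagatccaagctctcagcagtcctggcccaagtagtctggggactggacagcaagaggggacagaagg
Nmu, chr5:76363728-76364027, - strand: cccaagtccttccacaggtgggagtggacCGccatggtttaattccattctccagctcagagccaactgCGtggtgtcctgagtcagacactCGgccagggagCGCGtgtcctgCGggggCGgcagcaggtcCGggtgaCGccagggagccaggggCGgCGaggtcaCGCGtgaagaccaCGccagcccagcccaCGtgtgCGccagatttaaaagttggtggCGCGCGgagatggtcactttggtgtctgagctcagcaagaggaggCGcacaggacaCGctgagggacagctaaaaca
Scnn1g, chr7:121734229-121734528, + strand: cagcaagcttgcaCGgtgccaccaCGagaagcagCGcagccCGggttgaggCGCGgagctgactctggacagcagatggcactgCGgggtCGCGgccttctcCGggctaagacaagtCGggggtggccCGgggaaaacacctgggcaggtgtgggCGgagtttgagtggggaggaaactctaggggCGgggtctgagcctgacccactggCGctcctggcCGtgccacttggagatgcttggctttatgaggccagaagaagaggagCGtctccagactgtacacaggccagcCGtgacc
CG is its own reverse complement, so both strands were searched at once. These windows hold 14, 28, 2, 5, 21 and 18 CG in the order shown, against a median of 13 over the 21262 promoter windows of coding genes, of which 95.4% hold at least 1. The windows of Gm8108 and LOC115488283 share a stretch of 161 aligned bases of which 160 are identical. LOC115488283 shares 273 aligned bases with the promoter of Gm3500, of which 270 are identical. Reads of such copies can be assigned to the wrong place, so the calls at these genes are uncertain.

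Peaks were narrower in the B6 lists than in the 129 lists. B6 replicates 1, 2 and 4 had 2397, 4726 and 4320 peaks, and 129 replicates 1, 2 and 3 had 2909, 1807 and 2533. Median peak width was 3930, 1410 and 4685 bp in B6 and 8449, 7799 and 6209 bp in 129. Every B6 list lay below every 129 list in width, while the peak numbers of the groups overlapped. The width averaged 3342 ± 1715 bp (SD, n = 3) in B6 and 7486 ± 1152 bp (SD, n = 3) in 129, a ratio of 0.399 (exact permutation p = 0.1). In equal lists the ratio was 0.506 and the groups overlapped, with 4432, 2370 and 7460 bp in B6 and 10548, 7799 and 7353 bp in 129 (exact permutation p = 0.2). B6 replicate 2 stands apart from the other lists: 20.3% of its peaks were under 1 kb, against 0.103% to 2.67% in the rest. Without it the width difference was -0.79 on the log2 scale in place of -1.33.

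Covered length and marked genes separated the groups less. The full lists covered 11.42, 8.686 and 26.97 Mb in B6 and 31.73, 17.77 and 20.48 Mb in 129 (exact permutation p = 0.3). In equal lists the cover was 9.755, 5.229 and 17.49 Mb against 24.35, 17.77 and 17.19 Mb (exact permutation p = 0.2). B6 replicate 4 reached into the range of 129 by both measures, and the other B6 lists lay below it. The full lists marked 1811, 1642 and 3386 protein-coding genes in B6 and 2854, 1791 and 2310 in 129, a difference smaller than the spread within either group (exact permutation p = 0.9). Of the covered length, the X chromosome made up 0.533%, 10.9% and 1.12% in B6 and 2.83%, 3.21% and 0.872% in 129. The list with the highest X share is the female B6 replicate 2, which is also the list of short peaks, and the groups overlapped (exact permutation p = 0.9).

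**Figure D1:**
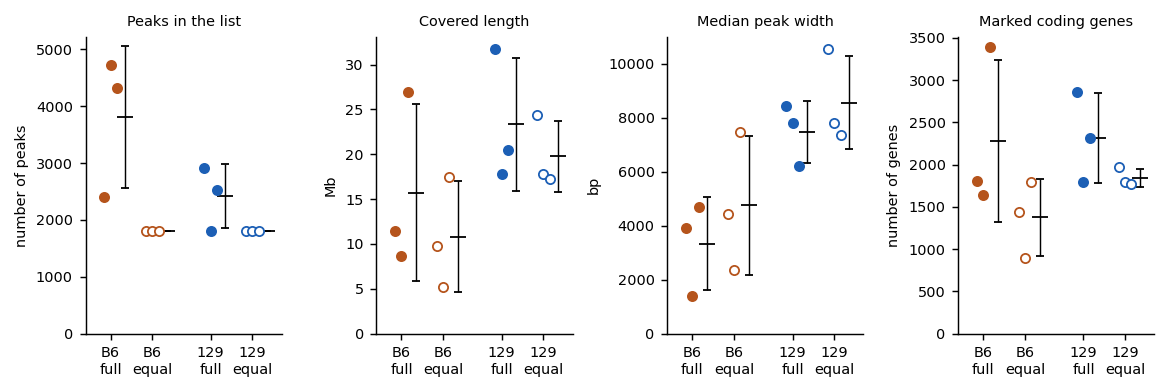
Peaks per list, covered length (Mb), median peak width (bp) and marked coding genes in B6 and 129 lists with vitamin C. Each point is a library, filled for full lists and open for equal lists of 1807 peaks, and the bar is the mean ± SD over 3 libraries. In full lists the median width of the 3 B6 points, 1410 to 4685 bp, lies below that of the 3 129 points, 6209 to 8449 bp.

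Pairs of 129 lists shared more of their covered bases than pairs of B6 lists. The Jaccard index, shared bases divided by all bases covered by either list, was 0.532 to 0.643 between 129 lists and 0.257 to 0.414 between B6 lists. Across backgrounds it was 0.217 to 0.607. B6 replicate 4 shared more with each 129 list (0.523 to 0.607) than with B6 replicate 1 (0.414) or 2 (0.257). Pairs within a background averaged 0.041 above pairs across backgrounds in full lists (one-sided exact permutation p = 0.2, 10 splits). In equal lists the difference was 0.070 (one-sided exact permutation p = 0.1, the smallest that 10 splits allow), and B6 replicate 4 was again closer to the 129 lists.

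Merging all peaks by at least 1 bp of overlap gave 5232 regions in full lists. Of these, 1300 (24.8%) were called in all 6 lists. 29 regions (0.554% of all) were called in every B6 list and no 129 list, and 9 (0.172%) in every 129 list and no B6 list. In equal lists the balance was the other way, with 7 of 2379 regions (0.294%) called in B6 alone and 49 (2.06%) in 129 alone. Of the 49, 7 had no peak in any full B6 list, 21 had a peak in 1 list, 16 in 2 and 5 in all 3, so most have a peak in at least 1 full B6 list. Of the 29 B6 regions of the full lists 4 stayed so in equal lists, and of the 9 129 regions 7 did. Without B6 replicate 2 the full lists gave 70 regions in B6 alone and 13 in 129 alone. Without B6 replicate 4 these were 32 and 74. Without B6 replicate 1 there were 139 in B6 alone, without 129 replicate 1 there were 68, and without 129 replicate 2 there were 25 in 129 alone.

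The 9 regions of 129 lie on 5 autosomes. 3 are in the multicopy part of proximal chromosome 14: chr14:4106547-4112187 at Gm8108, chr14:6036775-6040656 at LOC115488283 and chr14:7241891-7247362 at Gm3715 and Gm5456. Their peaks covered 5.641, 3.893 and 4.2 kb, 2.707, 3.579 and 3.773 kb, and 5.472, 3.702 and 2.283 kb in 129 replicates 1, 2 and 3. No B6 list had a base of peak in any of them. Another, chr17:36056127-36069230, spans Gm11127 and Gm6034 in the H2-T part of the major histocompatibility complex, a stretch of class I genes that differ between mouse strains. It held 13.1, 12.35 and 8.997 kb of peaks in 129. On chromosome 1 a peak of 2.169, 1.321 and 1.307 kb lay over Rrs1, which encodes a ribosome assembly factor. A wider one, chr1:164220485-164232082, lay 0.207 kb from F5, the gene of coagulation factor V, and held 11.6, 7.885 and 7.353 kb. The last 3 lie between genes: 29.06 kb from Ust, 51.97 kb from Dap and 7.598 kb from Adck5.

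By maximum signal the 129 regions fall into a strong and a weak set. The peaks at Rrs1, near Ust and at the 3 chromosome 14 loci stood at the 96.96th percentile of their own list or higher in every 129 library. The peaks near Dap, near Adck5 and at Gm11127 stood between the 9.988th and 52.6th percentile, and those near F5 between the 39.9th and 78.55th.

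The 29 regions of B6 were mostly short or weak. 8 were under 1 kb, the median length was 3796 bp, and 18 touched a coding gene. Those with the most bases of peak are ribosomal repeats: chr17:39841456-39848829 holds Rn18s-rs5, a copy of ribosomal RNA sequence, with 6.735, 6.785 and 7.374 kb of peak in B6. The 90.16 kb region chr8:123536069-123626224 holds the 5S ribosomal RNA genes beside Gas8, a gene of ciliary movement, with 88.62, 87.69 and 90.16 kb. No base of either was in a 129 list with vitamin C. Short regions with high maximum signal lay in Jarid2 (515 bp), which encodes a subunit of Polycomb repressive complex 2, in Lars2 (571 bp), which encodes mitochondrial leucyl-tRNA synthetase, in Cdk8 (387 bp) and in Camk1d (337 bp). Their percentiles within the B6 lists were 91.92 to 99.75. At Camk1d each B6 list held 337 bp and at Cdk8 each held 387 bp, so these short peaks had the same length in every list. The Jarid2 region was called in 0 libraries of either background without vitamin C. The IgG samples were not analysed here, so whether these short peaks and the ribosomal repeats carry H3K27me3 was not tested. Broader and weaker regions lay at Nmu, which encodes the peptide neuromedin U, at Scnn1g, a subunit of the epithelial sodium channel, at Pax4, a factor of pancreatic islet cells, at Kctd8, Tmem171, Plekhg3, Plec, Itgb7, Asap3 and Lrrc4b. At Nmu the B6 lists held 2.154, 1.326 and 3.886 kb of the region. The region 0.203 kb from Mid1, the gene that crosses the boundary of the pseudoautosomal region of the X chromosome in B6, held 2.72, 7.96 and 8.515 kb.

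The same regions were then read in the 6 embryos without vitamin C, which took no part in choosing them but whose library numbers also run with strain. The 9 regions of 129 were called 9, 3 and 8 times in 129 replicates 1, 2 and 3 and 0 times in each B6 library. That is 74.07 ± 35.72% (SD, n = 3) against 0% in B6, a complete separation of the groups at the smallest p the design allows (exact permutation p = 0.1). All other regions were called in 54.49%, 20.7% and 56.46% of cases in these 129 libraries and in 26.36%, 11.28% and 41.07% in the B6 libraries. The 29 regions of B6 were called 15, 4 and 17 times in B6 replicates 1, 2 and 4 and 7, 1 and 13 times in 129. These groups overlapped (41.38 ± 24.14% against 24.14 ± 20.69%, SD, n = 3, exact permutation p = 0.4). 13 of the 29 were called in more B6 than 129 libraries, 2 in more 129 libraries and 8 in none. Rn18s-rs5 was called in 3 of 3 B6 and 0 of 3 129 libraries again. The 5S region was called in all 6 and did not separate the strains there.

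**Figure D2:**
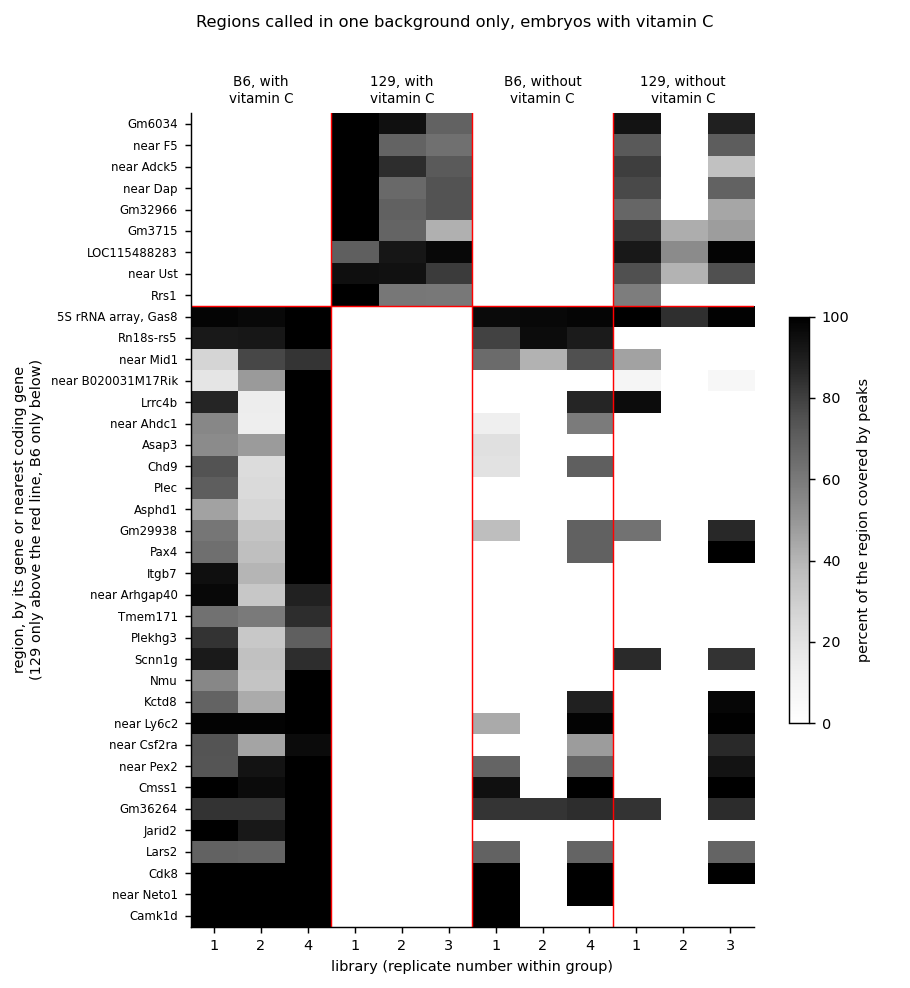
Percent of each region covered by peaks (grey scale, 0 to 100) in the 12 libraries, one row per region called in one background only among embryos with vitamin C, full lists. Rows above the red line are the 9 regions of 129 and rows below it the 29 of B6, and columns 7 to 12 are the embryos without vitamin C. The top rows stay white in every B6 column, with and without vitamin C.

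Outside the strict rule, and chosen after its values were seen, the widest difference lay between Hrh1, the histamine H1 receptor gene, and Atg7, an autophagy gene. The stretch chr6:114483299-114643126 measures 159.8 kb and holds no coding gene. Peaks covered 149, 137.6 and 117.2 kb of it in 129 replicates 1, 2 and 3, and 0, 21.76 and 31.03 kb in B6 replicates 1, 2 and 4. Every 129 list lay far above every B6 list, with 93.24%, 86.09% and 73.33% of the stretch covered in 129. In 129 the best peak there ranked 1, 1 and 3 by total signal in its list and 4, 4 and 3 by maximum signal. In B6 replicates 2 and 4 the best ranked 1566 of 4726 and 1955 of 4320 by total signal, and 612 and 2657 by maximum signal. B6 replicate 1 had no peak. Without vitamin C peaks covered 140.1, 51.77 and 114.2 kb in 129 and 0, 0 and 20.55 kb in B6, again with every 129 library above every B6 library.

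**Figure D3:**
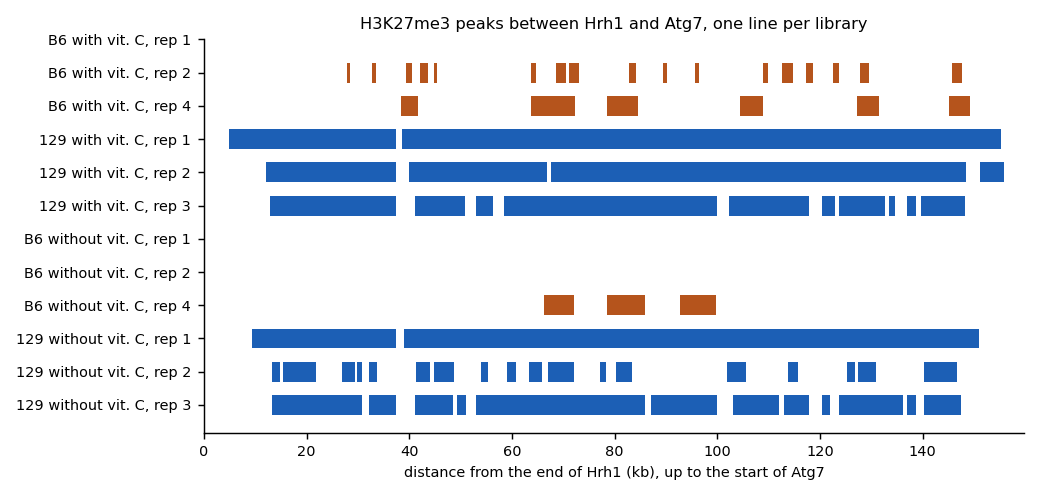
H3K27me3 peaks (bars) between the end of Hrh1 and the start of Atg7 in the 12 libraries, plotted by distance from Hrh1 in kb, with B6 in orange and 129 in blue. With vitamin C, 129 replicate 1 has 2 peaks that cover 93.2% of the stretch, and B6 replicate 1 has none.

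Of 21896 coding genes, 1105 (5.05%) were marked in all 6 full lists, 13 (0.0594%) in every 129 list and no B6 list, and 9 (0.0411%) in every B6 list and no 129 list. In equal lists these counts were 701 (3.2%), 49 (0.224%) and 4 (0.0183%). Without B6 replicate 4 the full lists gave 167 genes in 129 alone, and without 129 replicate 2 or 3 they gave 40. Without B6 replicate 1 they gave 71 in B6 alone, without B6 replicate 2 they gave 38, and without 129 replicate 1 they gave 32.

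The genes of 129 alone hold to both kinds of list in 9 cases: Exoc3l2, Gm11127, Gm8108, LOC115488283, Mzb1, Zfp428, Tmem190, Per1 and Swsap1. The last 5 of these calls depend on the window at the gene ends. With a window of 0 kb Mzb1 and Zfp428 differed by 1 library, and Tmem190, Per1 and Swsap1 by 0. With 2.5 kb Mzb1 and Swsap1 differed by 0. Of the genes of 129 alone, 0 kept the full difference in every alternative. Serinc2, Gm13271, Gm13286 and Rrs1 held to the full lists only. Values are kb of peak over the gene and 1 kb on each side, in 129 replicates 1, 2 and 3. Gm11127 had 3.245, 3.245 and 3.164, Gm8108 2.836, 2.56 and 2.451, and LOC115488283 2.485, 2.261 and 2.376, each against 0 in every B6 list. These 3 genes were among those with the largest cover in 129, and no B6 list touched them. Mzb1, which encodes a chaperone of B cells, had 3.041, 0.858 and 0.491 kb. Per1, a core gene of the circadian clock, had 0.529, 0.668 and 0.484 kb, an edge of a peak rather than a domain over the gene.

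Exoc3l2, an exocyst-related gene, shows what the rule does and does not see. Its body carried 10.56, 10.84 and 20.8 kb of peak in B6 and 28.97, 21.16 and 20.66 kb in 129. In 129 the peaks reached the promoter printed above, and in B6 they lay inside the gene, more than 1 kb from either end. The cover of the groups overlapped at B6 replicate 4. Serinc2 likewise held peaks inside the gene in B6 replicates 1 and 4 (3.768 and 3.713 kb), below the 10.8, 9.968 and 6.312 kb of 129. Pear1 and Hcn3, a gene of a pacemaker channel, follow in equal lists. Hcn3 had 10.04, 7.66 and 7.409 kb in 129 and 5.31 kb in B6 replicate 4, with 0 in the other B6 lists.

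Of the 9 genes of B6 alone, Sez6l2 had the most of the mark, 2.379, 1.36 and 6.863 kb in B6 replicates 1, 2 and 4, followed by Scnn1g with 3.29, 1.285 and 3.069 kb and Tmem171 with 2.391, 1.936 and 3.2 kb. The others were Kctd8, Nmu, Plekhg3, Pax4, Lars2 and Gas8, the last of which owes its call to the edge of the 5S region. Only Gas8 also met the rule in equal lists. There Prdm1, a repressor that germ cell specification needs, Ube2ql1 and Cntn4 joined it, but Prdm1 and Cntn4 were marked in 2 of 3 full 129 lists and Ube2ql1 in 1. At Prdm1 the full lists held 3.043, 2.907 and 8.23 kb in B6 and 5.78, 0 and 3.334 kb in 129, which overlap.

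In embryos without vitamin C, 12 of the 13 genes of 129 were marked in more 129 than B6 libraries and 0 in more B6 libraries. Those lists lean toward 129 at most genes: of the 3091 coding genes marked in any of them, 70.9% were marked in more 129 libraries and 4.37% in more B6 libraries (10% and 0.617% of all coding genes). The count of 129 genes is to be read against that lean. Of the 9 genes of B6, 1 was marked in more B6 libraries, 1 in more 129 libraries and 7 in the same number of both. In the full lists with vitamin C, 4.87% of all coding genes were marked in more 129 and 4.81% in more B6 libraries. In equal lists these shares were 5.7% and 0.941%.

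Peaks filled more of the shared domains in 129 than in B6 replicates 1 and 2, while B6 replicate 4 lay within the range of 129. Over the 1300 regions called in every list, the median share of the region under peaks was 46.0%, 26.1% and 76.6% in B6 and 99.7%, 76.2% and 74.7% in 129. The groups overlapped through that list (49.56 ± 25.4% against 83.56 ± 14.02%, SD, n = 3, exact permutation p = 0.3). B6 replicate 2 broke these domains into 2.199 peaks each on average, against 1.003 to 1.29 in the other lists. In 416 of the 1300 (32%) every 129 list covered more than every B6 list, and in 1 (0.0769%) every B6 list covered more. In equal lists these were 269 (34.2%) and 0 (0%) of 786. The exception is chr13:120079008-120102826 at Gm21378, another stretch of multicopy genes, with 8.897, 10.62 and 23.82 kb in B6 and 6.945, 4.651 and 7.529 kb in 129. Chosen after their values were seen, Neurl1b, a Notch pathway ubiquitin ligase, and Sh3pxd2a, a scaffold of podosomes, are among the clearest of the other kind. At Neurl1b the B6 lists covered 3.711, 1.502 and 3.421 kb and the 129 lists 13.87, 13.0 and 10.73 kb. At Sh3pxd2a they covered 3.184, 2.662 and 3.608 kb against 8.976, 8.25 and 7.9 kb.

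The 4 Hox clusters, the textbook Polycomb domains that give body segments their identity, were covered in every list but to different degrees. Hoxc (chr15:102921131-103036856) was covered to 61.1%, 77.0% and 99.5% in B6 and to 100% in each 129 list, without overlap (exact permutation p = 0.1). Hoxa was covered to 70.6%, 73.5% and 99.2% against 100%, 94.3% and 96.4%. Hoxd was covered to 57.0%, 68.9% and 93.6% against 100%, 98.9% and 91.0%. Hoxb was covered to 54.8%, 55.5% and 79.2% against 82.4%, 77.3% and 74.5%. For Hoxa, Hoxb and Hoxd the groups overlapped through B6 replicate 4 (exact permutation p = 0.3, 0.3 and 0.2). As called genes, the Hox genes hardly differed: 38 of 39 were marked in all 6 full lists.

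**Figure D4:**
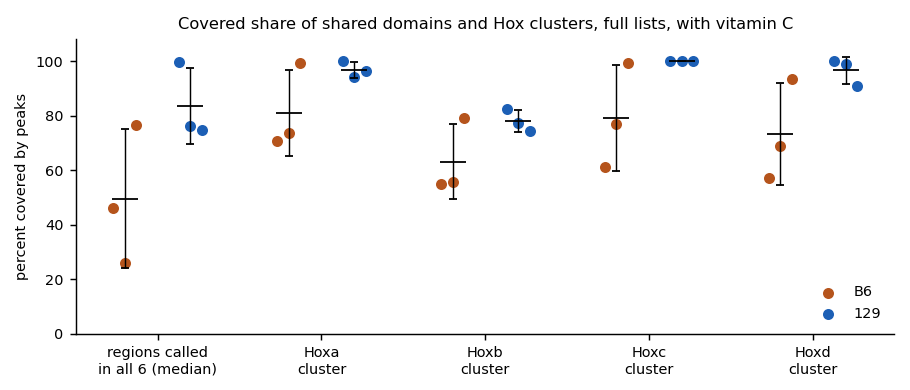
Percent of shared regions (median over 1300) and of each Hox cluster covered by peaks in full lists with vitamin C. Points are libraries (B6 orange, 129 blue) and bars are the mean ± SD over 3. B6 replicates 1 and 2 lie below the 129 points in every column, and B6 replicate 4 lies near them, at 76.6% of shared regions and 99.5% of Hoxc.

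Ranks within equal lists compare regions without comparing signal between libraries. Of the 786 regions called in all 6 equal lists, 39 (4.96%) ranked higher by total signal in every B6 list than in every 129 list, and 68 (8.65%) the other way. Of the 20 relabellings, 1 puts every B6 list first and 1 every 129 list. The 4.96% is close to that share, so the regions named for B6 are not shown to differ by strain. The 8.65% lies above it, but regions of 1 list are not independent and this was not tested. Rank 1 is the largest total signal. The widest gap on the B6 side was at Hap1, which encodes a huntingtin-associated protein of neurons, with ranks 640, 707 and 702 in B6 and 1462, 1533 and 1389 in 129. The next was chr13:120012343-120018805 at the multicopy genes Gm36161 and Gm21370, with ranks 781, 226 and 763 against 1325, 1277 and 1333. Pstpip2, Chst8, Tbc1d24 with Ntn3, Tmem74b, Mettl1 with Cyp27b1, Col14a1, Prss56 with Chrnd, and Rxfp3 follow among the 10 with the widest gaps. At Ntn3, a netrin gene of axon guidance, the ranks were 498, 721 and 946 against 1645, 1171 and 1263.

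On the 129 side the widest gap was at Rdh13 and Eps8l1, with ranks 1453, 1449 and 1433 in B6 and 500, 673 and 541 in 129. Atoh1, which directs dorsal interneurons and cerebellar granule cells, ranked 1221, 1277 and 1056 in B6 and 355, 538 and 554 in 129. Foxd3, a regulator of neural crest, ranked 605, 819 and 395 against 217, 174 and 169. Wnt3, which encodes a signal of the primitive streak and dorsal neural tube, ranked 1375, 1434 and 1367 against 978, 848 and 957. The others were the Pcdhg protocadherin cluster, Zfp579, a region 60.04 kb from Nr2f2, Sptbn4, Atp12a and the Slc34a1, Pfn3 and F12 neighbours. These ranks separate the groups without overlap, which is how they were chosen, so no test is given.

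Gene groups were read as the share of members marked, with the share over all coding genes beside it. In equal lists B6 libraries marked 6.277 ± 2.057% and 129 libraries 8.414 ± 0.496% (SD, n = 3) of all coding genes, and 358 genes (1.64%) were marked in at least 2 more 129 than B6 libraries, against 42 (0.192%) the other way. In full lists these shares were 1.02% and 0.575%.

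Neural regulators were densely marked in both strains, and so were other developmental lists. In full lists the anterior neural plate and brain list averaged 82.58% in B6 and 88.64% in 129. Endoderm and gut factors averaged 83.33% and 79.17%, beside 10.41% and 10.59% of all coding genes. Of 44 genes of the anterior neural plate and brain, 35, 32 and 42 were marked in full B6 lists and 43, 37 and 37 in full 129 lists. In equal lists these were 31, 23 and 37 against 40, 37 and 35. Of the 44, 3 (6.82%, beside 1.64% of all coding genes) had at least 2 more 129 libraries in equal lists. Pax2, of the midbrain and hindbrain boundary, and Zic2, of the dorsal forebrain, were each marked in 3 of 3 129 and 1 of 3 B6 equal lists. Zic2 was also at 1 of 3 in full B6 lists, while Pax2 was marked in all 6 full lists, so its difference is one of rank.

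Of 20 genes of the ventral neural tube and floor plate, equal lists marked 15, 10 and 17 in B6 and 19, 18 and 18 in 129, without overlap. Over all coding genes the equal lists marked 1439, 895 and 1789 against 1967, 1791 and 1769, which overlap only through B6 replicate 4. The protocadherin, H2-, zinc finger and collagen lists below did not overlap either, so this is not particular to the ventral list. Its members with at least 2 libraries of difference (10%, beside 1.64% of all coding genes) were Ptch1 and Nkx6-1. That share is not particular to it either. It was 10.7% in the heart and vessel list, 10.5% in the protocadherins and 8.82% in the dorsal neural tube list, and 3.77% in secreted signals. Ptch1 (0 of 3 against 3 of 3) is the receptor of Sonic hedgehog, and Nkx6-1 (1 of 3 against 3 of 3) is switched on by its signal. At Ptch1 the full lists held 0, 0 and 5.885 kb in B6 and 7.033, 6.672 and 6.668 kb in 129. In full lists the group overlapped, with 17, 13 and 20 members in B6 and 20, 18 and 20 in 129. Of 34 genes of the dorsal neural tube and neural crest, 22, 17 and 28 were marked in equal B6 lists and 29, 27 and 28 in 129. Twist1, a factor of cranial mesenchyme that neural tube closure needs, was marked in 0 of 3 B6 and 3 of 3 129 equal lists, and Tfap2b and Lmx1a in 1 against 3. In full lists Twist1 was marked in 2 of 3 B6 lists. Of 45 genes of neurogenesis, Neurod1 and Isl1 differed by 2 libraries in equal lists, both toward 129.

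Lists of signals and of other germ layers overlapped between the strains. Of 53 secreted signals and antagonists, equal lists marked 33, 20 and 38 in B6 and 38, 35 and 39 in 129. Chrd, the BMP antagonist chordin, and Fgf9 were marked in 1 B6 and 3 129 lists, full and equal. The list of endoderm and gut factors, 16, 18 and 18 against 18, 17 and 18 of 24, was nearly level, with Cdx4 toward 129 and Prdm1 toward B6. Tbx18 and Hes7 of the mesoderm list, Isl1, Kdr and Heyl of the heart and vessel list, and Foxc1 and Grhl1 of the placode list were marked in 1 B6 and 3 129 equal lists. Members with at least 2 more 129 libraries made up 6.25%, 10.7% and 8% of these lists, beside 1.64% of all coding genes. Of 18 genes of the retinoic acid pathway none differed by 2 libraries in either kind of list.

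Of 37 genes needed for neural tube closure, equal lists marked 4, 2 and 6 in B6 and 8, 6 and 7 in 129, which overlap at 6. These are 10.81% and 18.92% on average, beside 6.277% and 8.414% of all coding genes. Twist1 and Zic2 (5.41%, beside 1.64% of all coding genes) were the members that differed by at least 2 libraries. In full lists the counts were 6, 3 and 11 against 10, 6 and 8, which also overlap. The clustered protocadherins, neuronal adhesion proteins encoded in tandem, did not overlap in equal lists: 2, 2 and 3 of 57 in B6 and 12, 6 and 7 in 129. That is 4.094% and 14.62% on average, beside 6.277% and 8.414% of all coding genes. Of the 57, 6 (10.5%) had at least 2 more 129 libraries, beside 1.64% of all coding genes. All 6 are of the Pcdhg cluster: Pcdhga9, Pcdhga11, Pcdhga12, Pcdhgb5, Pcdhgb7 and Pcdhgc3. Members of this cluster are neighbours that share domains and are not separate observations. In full lists the group overlapped, with 5, 11 and 14 against 14, 6 and 9.

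**Figure D5:**
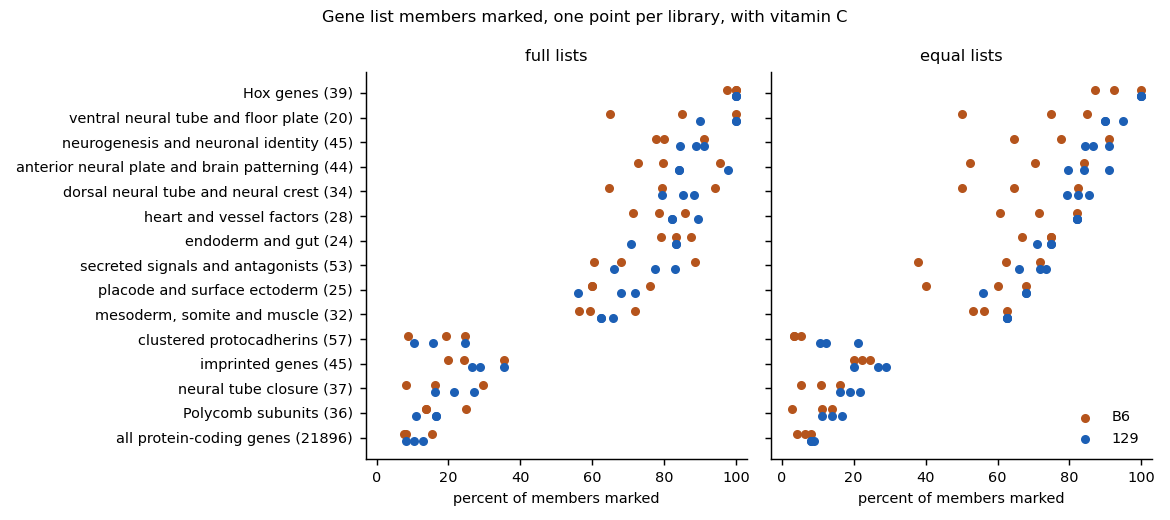
Percent of the members of each gene list marked, one point per library (B6 orange, 129 blue), in full lists at left and equal lists of 1807 peaks at right. Numbers in brackets are the members of each list. In equal lists the B6 and 129 points of the ventral neural tube list (50% to 85% against 90% to 95%) and of the clustered protocadherins do not overlap, and in full lists those of every list shown overlap.

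Of 36 Polycomb genes, 5, 5 and 9 were marked in full B6 lists and 6, 4 and 6 in 129. These are 17.59% and 14.81% on average, beside 10.41% and 10.59% of all coding genes, and the strains overlapped. Phc2, a subunit of Polycomb repressive complex 1, and Kdm6b, an iron-dependent demethylase of H3K27me3, were marked in 2 B6 lists and no 129 list, full lists only. Pcgf1 was marked in 1 B6 and 3 129 equal lists. Of 39 genes of vitamin C transport and dependent enzymes, full lists marked 0, 1 and 2 in B6 and 1, 0 and 0 in 129. In full lists 1 of them (2.56%, beside 0.575% of all coding genes) had at least 2 more B6 libraries. None was marked in any equal list, beside 6.277% and 8.414% of all coding genes. Of 30 housekeeping genes none was marked in any list. Of 45 imprinted genes Cdkn1c, a growth inhibitor expressed from the maternal copy, was marked in 0 of 3 B6 and 2 of 3 129 lists of either kind. Of 35 germline genes Mei1 was marked in 1 B6 and 3 129 equal lists.

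No vomeronasal receptor gene of 355 was marked, and 2 of 1110 olfactory receptor genes were marked in any full list. Of 38 histocompatibility genes named H2-, equal lists marked 8, 5 and 9 in B6 and 11, 11 and 10 in 129. That is 19.3% and 28.07% on average, beside 6.277% and 8.414% of all coding genes. The members with at least 2 more 129 libraries were H2-T-ps, H2-T22 and H2-T3 (7.89%, beside 1.64% of all coding genes). At H2-T-ps, a class I pseudogene by name, the full lists held 1.893, 0 and 3.287 kb in B6 and 4.694, 4.279 and 4.334 kb in 129. Without vitamin C it was marked in 0 of 3 B6 and 3 of 3 129 libraries. Also in the histocompatibility complex, and chosen after their values were seen, the neighbours Tnf, Lta and Ltb, which encode inflammatory cytokines, were marked in no equal B6 list and every equal 129 list. They were marked in 2 of 3 full B6 lists, and at Tnf these held 0.297, 0 and 3.217 kb against 4.641 kb in each 129 list.

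Gulo itself, at chr14:65986786-66009254, was marked in 0 of 6 lists. Within 10 Mb of it lie 204 coding genes, of which equal lists marked 12, 8 and 19 in B6 and 23, 20 and 19 in 129. 9 of these (4.41%) had at least 2 more 129 libraries and 0 the other way, beside 1.64% and 0.192% over all coding genes. They are Gja3, Fgf9, Sorbs3, Ppp3cc, Bmp1, Sftpc, Lgi3, Npm2 and Gfra2, of which Bmp1, Sftpc, Lgi3 and Npm2 are neighbours. In full lists 7 of the 204 (3.43%) had at least 2 more 129 libraries and 0 had at least 2 more B6 libraries, beside 1.02% and 0.575% of all coding genes.

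Promoters in a peak in all 6 full lists held more CG than others, with a median of 20 per 300-base window in 629 windows against 11 in the 18346 windows that no list touched. The windows covered in 129 alone were 12 (0.0564% of windows) with a median of 8.5 CG, and those covered in B6 alone were the 2 of Nmu and Scnn1g (0.00941%) with 21 and 18. Of the 12, the windows of Nhlh1, Lix1l, Mast3, Ebf1, Pvalb and Ess2 lay beside peaks that B6 lists also had within 5 kb. Only those of Gm13271, Gm8108, LOC115488283 and Gm11127 had no B6 peak within 5 kb. A count of CG is a description of these windows and no site of binding.

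Of 1228 microRNA genes, 31 were marked in all 6 full lists, 2 in 129 alone and 1 in B6 alone. These were chosen after their values were seen, and their mature sequences from RefSeq (GRCm38.p6) are given with the seed, bases 2 to 8, in capitals.
mmu-miR-499-5p: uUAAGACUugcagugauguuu
mmu-miR-181d-5p: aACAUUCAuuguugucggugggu
mmu-miR-5135: aGGUCUAGguggcaagggcguccu
The 3 seeds differ. Mir499 lies at chr2:155622880-155622958 inside Myh7b, the host gene with which this microRNA of striated muscle is transcribed. The gene and 1 kb on each side held 2.079, 2.049 and 2.079 kb of peak in the 129 lists and 0 in the B6 lists, full and equal. Without vitamin C it was marked in 0 of 3 B6 and 2 of 3 129 libraries. Mir181d was touched by no more than 0.251 kb in 129 and nothing in B6. Mir5135, at the start of Plekhg3, held 2.079, 1.33 and 1.361 kb in B6 and 0 in 129, and was marked in no library without vitamin C.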

How the data were processed

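H3K27me3 CUT&Tag peak lists of 6 single headfolds with vitamin C were compared, and 6 without were used to read regions again. The 4 IgG samples and 2 further B6 samples were not analysed here. The submitters' processing notes name cutadapt, Bowtie2, Picard, SEACR and mm10. The sources used here give no versions or settings and no control for the calls. The authors deposited 1 list per library, with total and maximum signal per peak as unscaled whole numbers, used here only for ranks within a list. List length can follow depth, which is unknown, so equal lists were added.

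Peaks were merged at 1 bp of overlap or more. Genes, promoters and microRNAs came from RefSeq GRCm38.p6 (21896 coding genes, matched by symbol). A gene was marked where a peak reached within 1 kb of either end. Coordinates are 1-based. Groups were compared by exact permutation of 3 against 3 (threshold 0.05), which was checked on a fixed example. The counting of covered bases was checked on simulated intervals. Alternatives were other cuts of the lists, windows, minimum peaks and scales, joined peaks, autosomes only and each library left out. Equal covered length, and regions read by share covered, were added after the lists had been seen.

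Genes were named by rule: up to 15 per direction marked in 3 of 3 against 0 of 3, ordered by covered bases, up to 10 such regions by length, up to 10 regions by rank gap, the Hox clusters, list members that differ by at least 2 libraries in equal lists, and genes within 10 Mb of Gulo. Genes outside it are named as picked with their values in view, and not every gene under the rule is reported here. The comparison and the 30 gene lists were chosen with earlier results of these data known. Software was NumPy 2.4.6, Biopython 1.88, Matplotlib 3.10.9, SciPy 1.17.1 and pandas 2.3.3 under Python 3.11.15.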

Additional observations from a re-analysis of the deposited data

How the results depend on the processing

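Depth is unknown and no test could pass 0.05, so stability here is only of direction and size. Median peak width, covered length, peak number, the covered share of shared domains and the reading of the 129 regions without vitamin C kept their direction in every alternative run for them. Marked genes (log2 B6 over 129, -0.08) reversed with peaks anywhere in the gene (0.0587) and with equal covered length (0.87), and ran from -0.40 to 0.12 with a library left out. The X share (1.88 percentage points) reversed in equal lists of 1807 (-0.186) and 748 peaks (-0.0517) and ran from -1.48 to 3.70 with a library left out. The Jaccard difference ran from -0.0304 to 0.183, negative without any 129 library. The B6 regions read without vitamin C (17.2 percentage points) reversed at the median maximum signal (-7.84) and at equal covered length (-13.6), and ran from -5.88 to 19.8.

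Counts depended on how lists were cut. Regions of B6 alone (29) were 7 in equal lists of 1807 peaks and of 748, 12 in equal lists by maximum signal, 12 at 50% of the region covered and 30 to 139 with a library left out. Regions of 129 alone (9) were 49 and 28 in those equal lists, 67 by maximum signal, 15 at the median maximum signal, 0 at equal covered length, 64 at 50% covered and 9 to 74. With equal covered length the B6 lists kept 1472, 4726 and 517 peaks and the 129 lists 307, 514 and 525, which overlap. Genes of B6 alone (9) were 4 in equal lists of 1807 peaks, 2 by maximum signal, 17 at the median maximum signal, 20 at equal covered length, 2 with a window of 0 kb, 3 at the gene's start and 9 to 71. Genes of 129 alone (13) were 49 and 31 in the equal lists, 66 by maximum signal, 4 at equal covered length, 21 and 20 with windows of 0 and 2.5 kb and 13 to 167. The cause of these changes was not tested. The reading of 129 regions could not be made at equal covered length, which leaves none. No paired analysis was possible because the replicate numbers follow accession order and the labels pair no B6 embryo with a 129 embryo.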

Other observations

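Some gene groups belong to none of the comparisons above. Over all coding genes, equal lists marked 6.277% in B6 and 8.414% in 129 on average. At least 2 libraries of difference were seen at 1.64% of coding genes toward 129 and at 0.192% toward B6. Of 21 genes of DNA methylation and demethylation, equal lists marked 1, 1 and 3 in B6 and 3, 1 and 2 in 129. Of 94 potassium channel genes, full lists marked 29, 21 and 60 in B6 and 45, 31 and 36 in 129, and equal lists 25, 10 and 34 against 33, 31 and 31. Kcnab3, Kcne3, Kcnj9, Kcnk6 and Kcnn1 (5.32% of members) had at least 2 more 129 libraries in equal lists, and 0 members the other way. In full lists 5 members (5.32%) had at least 2 more 129 libraries and 4 (4.26%) at least 2 more B6 libraries. Over all coding genes the full lists gave 1.02% and 0.575%. Of 389 solute carrier genes, equal lists marked 37, 18 and 41 against 44, 40 and 39. In each direction 4 members (1.03%) differed by at least 2 libraries, which toward 129 is below the share of all coding genes. These were Slc15a1, Slc16a14, Slc16a8 and Slco4a1 toward B6, and Slc30a3, Slc34a1, Slc47a2 and Slc6a20a toward 129. Of 47 collagen genes, equal lists marked 8, 3 and 8 against 9, 9 and 9, with Col13a1 and Col26a1 (4.26% of members) toward 129. Of 400 zinc finger genes, equal lists marked 5, 4 and 11 against 14, 14 and 12. Of these genes 7 (1.75%), Zfp428 among them, differed by at least 2 libraries toward 129, near the share of all coding genes. None of 13 Ly49 receptor genes was marked in any list.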
